A study of Mus musculus with 12 samples.

Results

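The desmosomal cadherins are the adhesion proteins of the desmosome, the junction that ties keratinocytes to each other and anchors their keratin filaments. They form a small gene family of desmogleins and desmocollins, and all 9 mouse members were analysed: the desmogleins Dsg1a, Dsg1b, Dsg1c, Dsg2, Dsg3 and Dsg4 and the desmocollins Dsc1, Dsc2 and Dsc3. They were chosen by name from the 17853 genes measured. Desmogleins and desmocollins of neighbouring cells bind each other outside the cell, while their tails recruit plakoglobin, plakophilins and desmoplakin, which hold the keratins. In epidermis the family changes with depth: Dsg3 and Dsc3 are known from the basal and lower layers, Dsg1 and Dsc1 from the upper layers, Dsg2 is scarce and mostly basal, and Dsg4 belongs to the hair shaft and the uppermost cells. Dsg1 and Dsg3 are the targets of autoantibodies in human pemphigus, and mice without Dsg3 lose their hair.

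The study profiled epidermal cells sorted by flow cytometry from back skin in telogen, when the hair follicles rest, of female Gata6-mtomato reporter mice on a C57BL6/CBA background. Gata6+Itga6- cells carried the red reporter of the transcription factor Gata6 and lacked integrin alpha 6, the laminin receptor by which basal keratinocytes are sorted. Gata6+Itga6+ cells carried both. CD34+ cells had CD34, which marks the hair follicle bulge, and integrin alpha 6 but no reporter, and remaining basal cells had integrin alpha 6 with neither CD34 nor the reporter. Each population had 3 samples, labelled as biological replicates from mice matched for age and sex; ages, whether animals were pooled and how the reporter was built were not given in the sources used here. RNA was amplified and hybridised to Affymetrix mouse exon arrays, which hold many short probe sets per gene. A level below is the median over a gene's probe sets of log2(intensity + 1), so 1 unit is about a 2-fold difference in intensity for a bright gene and more than that for a dim one, and folds are given on this scale. As a yardstick, 95% of 1144 olfactory and vomeronasal receptor genes, which skin cells are not known to use, stayed at or under 2.68 in every population; this is called the silent level. Levels of different genes depend on their probes and are not set against each other.

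The sort genes followed their labels for Cd34 and Gata6. Cd34 averaged 1.96, 1.78, 7.95 and 1.66, and Gata6 5.84, 4.39, 2.84 and 2.73, in Gata6+Itga6-, Gata6+Itga6+, CD34+ and remaining basal cells. Itga6 mRNA was lower in the cells sorted as lacking the protein but stayed well over the silent level, at 6.02, against 7.28, 6.76 and 7.67 in the 3 populations sorted as having it. The basal keratin Krt5 was likewise lowest in Gata6+Itga6- cells, at 6.67, against 9.17, 9.47 and 9.54. Remaining basal cells also held suprabasal keratins: Krt10 averaged 9.61, 9.50, 6.90 and 9.30 in the same order, and Krt1 was at 4.67 to 4.90, 6.12 to 7.69, 2.74 to 3.30 and 6.79 to 7.47. Krt10 in remaining basal cells was not called different from Gata6+Itga6+ cells, and both keratins were lowest in CD34+ cells. Along the third principal component, remaining basal replicate 3 lay at -24.4, against 27.1 and 20.5 for its group, and Gata6+Itga6- replicate 2 at -6.87, against 21.9 and 21.4; calls lost without either array are stated beside the gene.

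Dsc1, Dsg1a, Dsg1b, Dsg2, Dsg3, Dsc2 and Dsc3 were over the silent level in at least 1 population, and Dsg1c and Dsg4 in none. The sample values fell into a few plain patterns. Dsc1 was highest in Gata6+Itga6- cells and next in Gata6+Itga6+ cells. Dsg1a was low in CD34+ cells. Dsg2 was low in Gata6+Itga6- and CD34+ cells, Dsg3 ran in the order opposite to Dsg1a at the extremes, and Dsc3 was not called in any comparison.

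**Figure D1:**
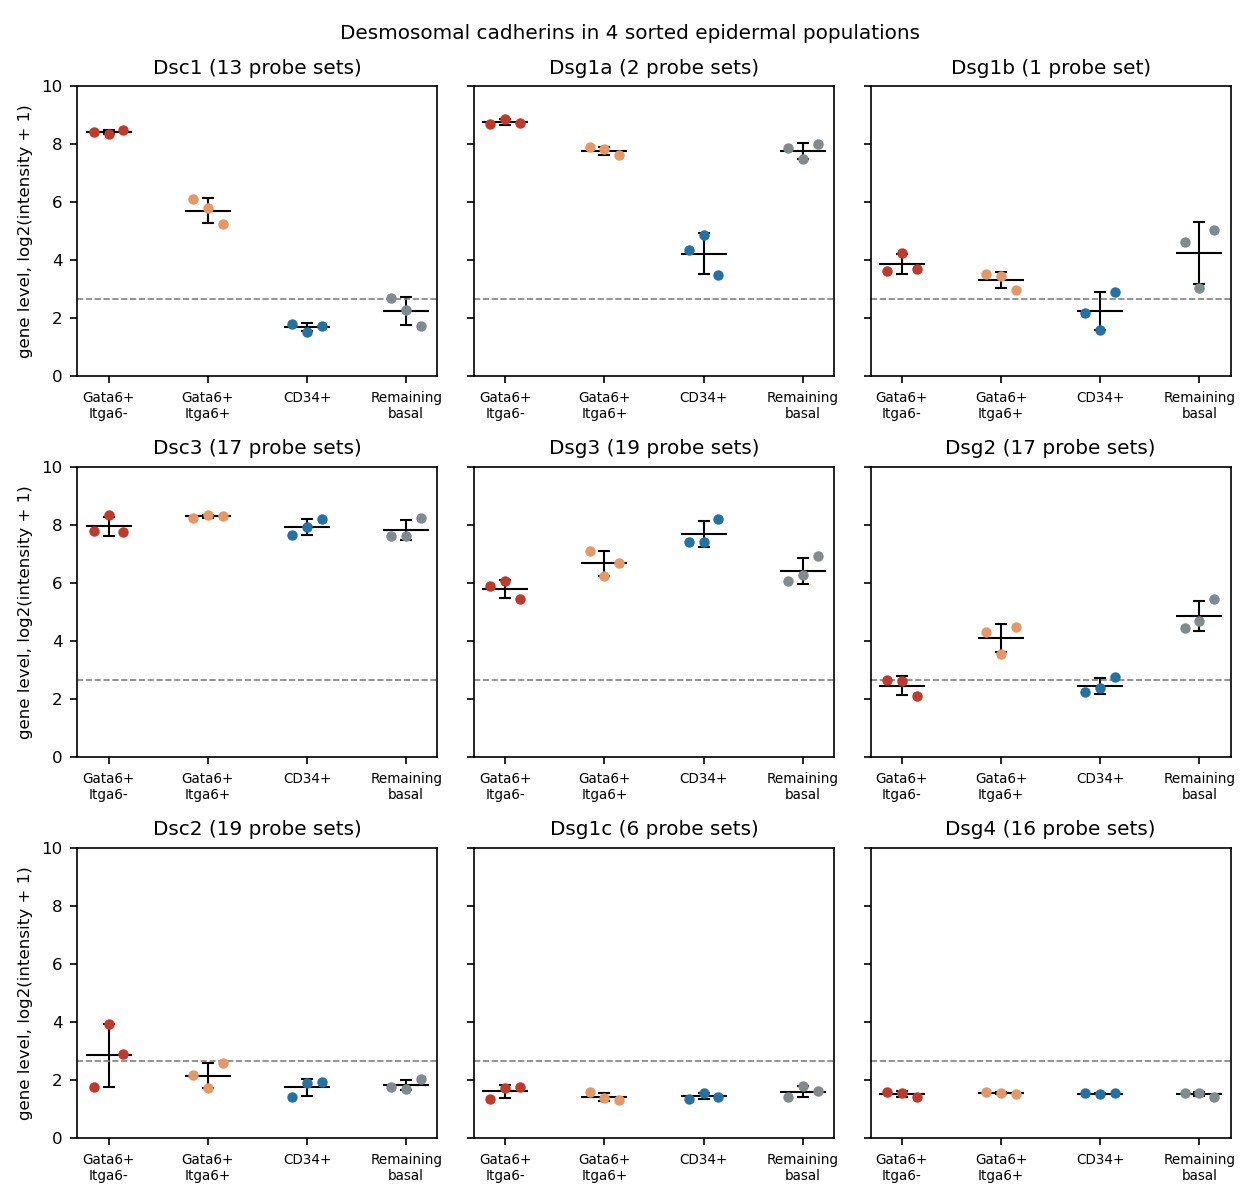
Level of each of the 9 desmosomal cadherins (vertical axis, log2(intensity + 1), median over probe sets) in every sample of the 4 populations (points, 3 per population; horizontal bars are means, vertical bars SD; the dashed line is the silent level of 2.68). Dsc1 falls to about the silent level in CD34+ and remaining basal cells, Dsg1a is low in CD34+ cells alone, and the means of Dsc3 lie between 7.83 and 8.30.

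Dsc1, the desmocollin of the upper epidermal layers, showed the widest range of the family. Its levels were 8.43, 8.35 and 8.49 in the Gata6+Itga6- samples (8.42 ± 0.072, SD, n = 3) and 6.09, 5.81 and 5.23 in the Gata6+Itga6+ samples (5.71 ± 0.44). They were 1.81, 1.53 and 1.74 in the CD34+ samples (1.69 ± 0.14) and 2.70, 2.28 and 1.74 in the remaining basal samples (2.24 ± 0.48). Both Gata6+ populations stood over the others with no overlap, and the CD34+ and remaining basal means lay under the silent level. Gata6+Itga6- cells had 6.56-fold more Dsc1 than Gata6+Itga6+ cells (a log2 change of 2.71 with an SE of 0.25; adjusted p = 0.000357 in limma). The means of both Itga6+ populations without the reporter lay under the silent level, with 1 remaining basal sample just over it. Folds against them are therefore taken from that level. They are lower bounds for the gene median only, since 5 of the 13 probe sets were over the silent level in remaining basal cells. By the gene median, Gata6+Itga6- cells had at least 53.6-fold more Dsc1 than CD34+ cells (adjusted p = 1.25e-07) and than remaining basal cells (7.3e-07). Gata6+Itga6+ cells had at least 8.17-fold more than CD34+ cells (8.12e-06) and than remaining basal cells (8.04e-05). Dsc1 was the only member called between Gata6+Itga6+ and remaining basal cells, both of which carry integrin alpha 6; 1.36% of all genes were called there, 1.07% as higher and 0.286% as lower.

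The probe sets of Dsc1 moved together. All 13 were highest in Gata6+Itga6- cells, and all 13 were called higher there than in Gata6+Itga6+, CD34+ and remaining basal cells, where 0.265%, 1.55% and 1.37% of all probe sets were called higher. Between Gata6+Itga6+ cells and CD34+ cells 12 were called higher (0.871% of all probe sets), and between Gata6+Itga6+ and remaining basal cells 8 were (0.44%). In remaining basal cells 5 of the 13 averaged over the silent level, at 3.97, 3.79, 3.41, 2.77 and 3.12. The probe set at 3.41 was also over it in CD34+ cells, at 2.79. In CD34+ cells 1 was called lower than in remaining basal cells (0.731%). Over remaining basal cells, the log2 change of the 13 ran between 3.83 and 6.55 in Gata6+Itga6- cells and between 0.59 and 4.55 in Gata6+Itga6+ cells. The difference of Gata6+Itga6- from Gata6+Itga6+ cells was not the same for every probe set. For 3 probe sets, the dimmest of the 13, Gata6+Itga6- cells averaged 7.79, 6.22 and 5.65 and Gata6+Itga6+ cells 2.86, 2.56 and 2.41, which is near the silent level. The other 10 lay between 5.14 and 7.11 in Gata6+Itga6+ cells. Over all 13 the log2 change ran between 1.91 and 4.93, with the largest at a probe set of the dim trio.

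Dsg1a, the desmoglein whose human counterpart is the pemphigus foliaceus antigen, was present in 3 populations and low in bulge cells. It had 8.69, 8.88 and 8.71 in the Gata6+Itga6- samples (8.76 ± 0.10) and 7.88, 7.82 and 7.62 in the Gata6+Itga6+ samples (7.77 ± 0.14). It had 4.34, 4.85 and 3.47 in the CD34+ samples (4.22 ± 0.70) and 7.85, 7.47 and 7.99 in the remaining basal samples (7.77 ± 0.27). The CD34+ samples lay apart below all others, and the Gata6+Itga6+ and remaining basal samples covered the same range. Against CD34+ cells, Dsg1a was 23.2-fold higher in Gata6+Itga6- cells (log2 change 4.54, SE 0.29, adjusted p = 4.54e-06) and 11.7-fold higher in Gata6+Itga6+ cells (3.55, adjusted p = 5.07e-05). CD34+ cells had 11.7-fold less Dsg1a than remaining basal cells (-3.55, adjusted p = 3.98e-05).

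The Gata6+Itga6- samples of Dsg1a also stood over every Gata6+Itga6+ and remaining basal sample, yet neither difference was called. The log2 change was 0.99 in both (95% interval 0.35 to 1.63), with adjusted p = 0.119 against Gata6+Itga6+ cells and 0.0934 against remaining basal cells. The first was called in fits without CD34+ replicate 2 (adjusted p = 0.0497) or without CD34+ replicate 3 (0.0175), and the second likewise (0.0342 and 0.0104). CD34+ samples enter these fits only through the spread shared by all populations. Both were also called with log2(intensity + 16), at adjusted p = 0.0422 and 0.0273, and with only the 2 populations compared in the fit, at 0.016 and 0.0307. Between Gata6+Itga6+ and remaining basal cells, where Dsc1 was called and Dsg1a was not, the log2 ratio of Dsc1 to Dsg1a was higher by 3.47 (SE 0.40) with no overlap of samples.

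The 3 mouse copies of Dsg1 lie side by side in the RefSeq annotation of GRCm38.p6, where the family forms 1 run in the order Dsc3, Dsc2, Dsc1, Dsg1c, Dsg1a, Dsg1b, Dsg4, Dsg3 and Dsg2, with no other protein-coding gene among the 9. Near-identical copies can share probe signal, so values of single copies are uncertain. Dsg1a was measured by 2 probe sets listed for it alone, Dsg1b by 1 and Dsg1c by 6, and 1 further probe set was listed for both Dsg1a and Dsg1b and entered neither gene. The Dsg1b probe set gave 3.63, 4.26 and 3.71 in Gata6+Itga6- samples (3.87 ± 0.34), 3.52, 3.45 and 2.98 in Gata6+Itga6+ samples (3.32 ± 0.29), 2.20, 1.60 and 2.91 in CD34+ samples (2.24 ± 0.65) and 4.64, 3.03 and 5.04 in remaining basal samples (4.24 ± 1.1). It was lowest in CD34+ cells, as Dsg1a was, and the remaining basal samples spread across the levels of both Gata6+ populations. The CD34+ level was called lower than that of remaining basal cells (log2 change -2.00, SE 0.49, adjusted p = 0.0432; at least 2.95-fold), and no other Dsg1b difference was. Of 12 fits with 1 array left out, only those without CD34+ replicate 3 or remaining basal replicate 2 kept this call; in the other 10, adjusted p was between 0.0565 and 0.141, with a log2 change of -1.60 without remaining basal replicate 3. In the separate fit to all probe sets, the same difference of this single probe set was not called.

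The probe set listed for both copies resembled Dsg1a in its lowest population. It averaged 4.41 in Gata6+Itga6-, 3.28 in Gata6+Itga6+, 1.32 in CD34+ and 2.47 in remaining basal cells. The CD34+ and remaining basal means lay under the silent level. The remaining basal mean was under that of Gata6+Itga6+ cells, but the samples of these populations overlapped and no test was made. The Dsg1a probe sets were level between these populations. A difference in order from Dsg1a therefore cannot be read. Across the 12 arrays the 2 Dsg1a probe sets followed each other with Pearson's r = 0.965, and the shared one followed them with r = 0.808 and 0.819 and the Dsg1b probe set with r = 0.621. The Dsg1b probe set followed the brighter Dsg1a probe set with r = 0.648 and the dimmer with r = 0.727. These values describe 12 arrays that fall into 4 populations, and are given without a test. All 6 Dsg1c probe sets had means under the silent level in every population (the highest was 2.60), so no Dsg1c signal was detectable here, although Dsg1a was bright in 3 of these populations.

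**Figure D2:**
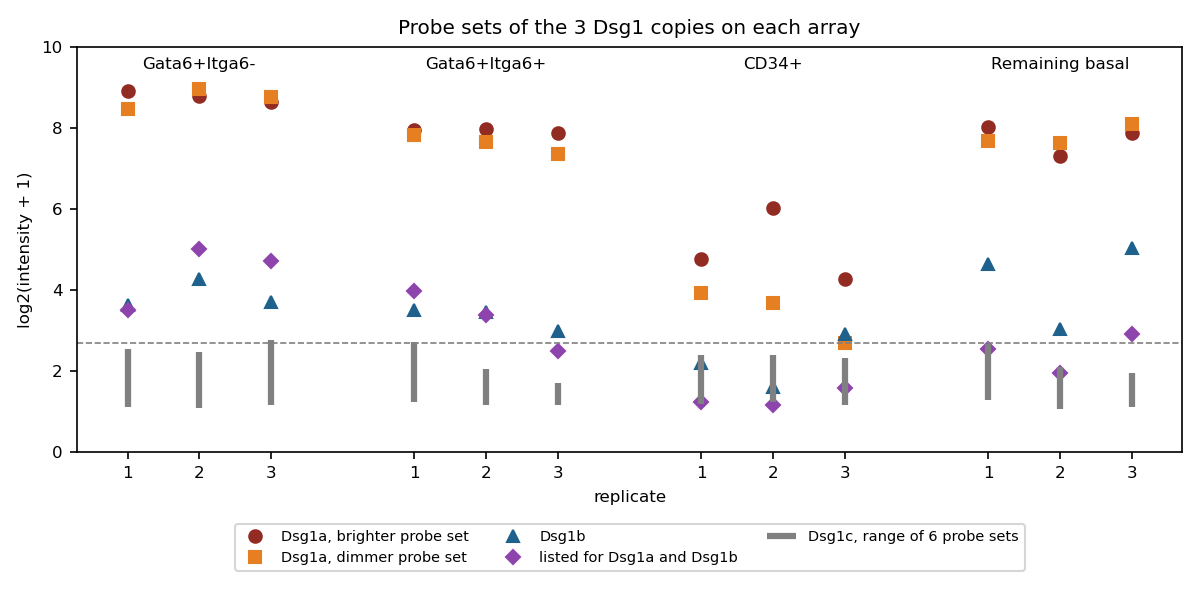
Level (log2(intensity + 1)) on each of the 12 arrays of the 2 Dsg1a probe sets, the Dsg1b probe set and the probe set listed for both (points), and the range of the 6 Dsg1c probe sets (grey bars), with the silent level of 2.68 dashed. Both Dsg1a probe sets drop in CD34+ cells, and the Dsg1c bars stay at or under about the silent level on every array.

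Dsg3, the desmoglein of the lower layers and antigen of pemphigus vulgaris, was highest in CD34+ cells. Its levels were 5.89, 6.07 and 5.47 in Gata6+Itga6- samples (5.81 ± 0.31) and 7.10, 6.23 and 6.71 in Gata6+Itga6+ samples (6.68 ± 0.44). They were 7.43, 7.41 and 8.20 in CD34+ samples (7.68 ± 0.45) and 6.09, 6.26 and 6.94 in remaining basal samples (6.43 ± 0.45). Every CD34+ sample stood over all 9 others, every Gata6+Itga6- sample lay under all 9 others, and the Gata6+Itga6+ and remaining basal samples overlapped. Gata6+Itga6- cells had 3.66-fold less Dsg3 than CD34+ cells (log2 change -1.87, SE 0.31, adjusted p = 0.00355). CD34+ cells had 2.38-fold more than remaining basal cells (1.25, adjusted p = 0.0474). Dsg3 in Gata6+Itga6- cells was lower by -0.87 on the log2 scale than in Gata6+Itga6+ cells (95% interval -1.56 to -0.18, adjusted p = 0.219) and by -0.62 than in remaining basal cells (-1.31 to 0.07, adjusted p = 0.410), and neither was called.

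The call between CD34+ and remaining basal cells was close to the threshold. With 1 array left out it was kept only without remaining basal replicate 3, Gata6+Itga6+ replicate 1 or Gata6+Itga6+ replicate 2, and in the other 9 fits adjusted p was between 0.0555 and 0.157. The 19 Dsg3 probe sets shared a direction more than a call. All 19 were highest in CD34+ cells. Against CD34+ cells, 16 were called lower in Gata6+Itga6- cells (2.43% of all probe sets) and 2 lower in Gata6+Itga6+ cells (0.988%). Against remaining basal cells, 1 was called lower in Gata6+Itga6- cells (1.01%) and 1 higher in CD34+ cells (1.77%). Probe sets of a gene share their RNA and are not replicates.

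**Figure D3:**
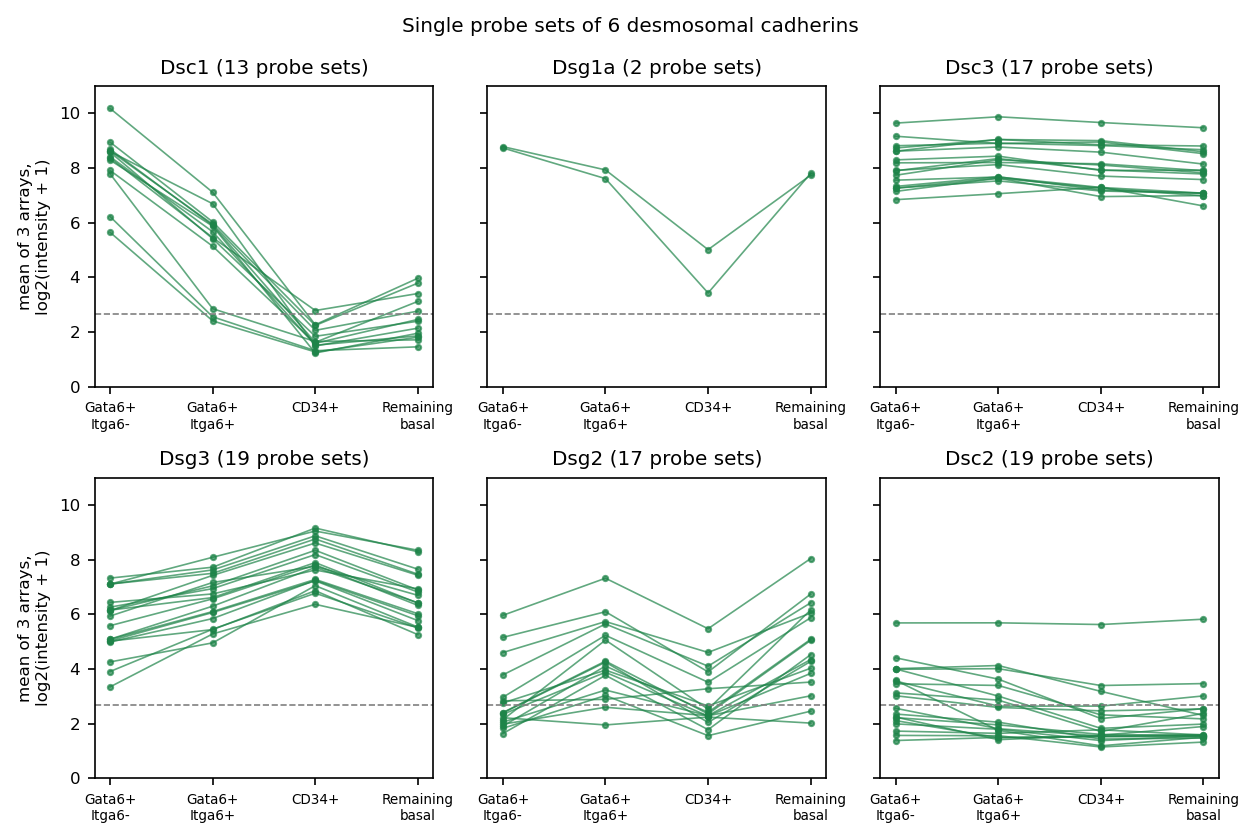
Mean of 3 arrays of each probe set (vertical axis, log2(intensity + 1)) of 6 desmosomal cadherins in the 4 populations, with a line joining the means of a probe set and the silent level of 2.68 dashed. The 13 Dsc1 probe sets are all highest in Gata6+Itga6- cells, with 3 of them near the silent level in Gata6+Itga6+ cells, the 19 Dsg3 probe sets all peak in CD34+ cells, and none of the 17 Dsc3 probe sets was called in any comparison.

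Dsc3, the desmocollin of the basal and lower layers, was bright in all 4 populations. It had 7.78, 8.34 and 7.75 in Gata6+Itga6- samples (7.96 ± 0.33), 8.25, 8.34 and 8.31 in Gata6+Itga6+ samples (8.30 ± 0.046), 7.66, 7.95 and 8.19 in CD34+ samples (7.93 ± 0.27) and 7.63, 7.64 and 8.23 in remaining basal samples (7.83 ± 0.34). The Gata6+Itga6- range overlapped that of all 3 other populations. Every Gata6+Itga6+ sample stood over every CD34+ sample (log2 change 0.37, 95% interval -0.10 to 0.84, adjusted p = 0.506) and over every remaining basal sample (0.47, -0.0038 to 0.94, adjusted p = 0.433), by a narrow margin. No difference was called in any of the 6 comparisons. The 95% interval was -0.81 to 0.13 for Gata6+Itga6- over Gata6+Itga6+ cells and -0.44 to 0.50 for Gata6+Itga6- over CD34+ cells, so differences beyond about 1 log2 unit lay outside them. Of the 17 Dsc3 probe sets, all were over the silent level, 15 were highest in Gata6+Itga6+ cells, and all 17 were higher there than in remaining basal cells by the sign of the change, but none was called in any comparison. The share of all probe sets with that sign was not taken. The median log2 change of all genes was 0.04 in that comparison. Array upper quartiles of intensity were 16.04, 15.91 and 16.91 in Gata6+Itga6+ and 12.21, 12.6 and 16.21 in remaining basal samples. Their part in these signs was not tested.

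Dsg2, the desmoglein found in most epithelia and the heart, was highest in remaining basal and Gata6+Itga6+ cells. It had 2.68, 2.62 and 2.11 in Gata6+Itga6- samples (2.47 ± 0.31), 4.30, 3.57 and 4.48 in Gata6+Itga6+ samples (4.12 ± 0.48), 2.23, 2.40 and 2.75 in CD34+ samples (2.46 ± 0.27) and 4.45, 4.70 and 5.46 in remaining basal samples (4.87 ± 0.52). The Gata6+Itga6- and CD34+ means lay under the silent level, and none of their samples reached those of the other populations. By the gene median, Dsg2 was at least 4.56-fold lower in Gata6+Itga6- cells than in remaining basal cells (log2 change -2.40, SE 0.31, adjusted p = 0.00101). It was at least 2.70-fold lower there than in Gata6+Itga6+ cells (-1.65, adjusted p = 0.0179). By the same measure, CD34+ cells had at least 4.56-fold less than remaining basal cells (-2.41, adjusted p = 0.0011), and Gata6+Itga6+ cells at least 2.70-fold more than CD34+ cells (1.66, adjusted p = 0.0121). These folds are lower bounds for the gene median only. Of the 17 probe sets, 7 averaged over the silent level in Gata6+Itga6- or CD34+ cells. The brightest averaged 5.96 in Gata6+Itga6-, 7.32 in Gata6+Itga6+, 5.47 in CD34+ and 8.04 in remaining basal cells. The last integrin-positive pair, Gata6+Itga6+ against remaining basal cells, overlapped (log2 change -0.75, 95% interval -1.44 to -0.07, adjusted p = 0.376).

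Low Dsg2 was thus found both in Gata6+ cells without integrin alpha 6 and in bulge cells, where Dsg1a was high in the first and low in the second. The call between Gata6+Itga6- and Gata6+Itga6+ cells was lost without Gata6+Itga6+ replicate 1 (adjusted p = 0.0612) or 3 (0.078) and without Gata6+Itga6- replicate 3 (0.0753), and that between Gata6+Itga6+ and CD34+ cells without Gata6+Itga6+ replicate 3 (0.0524) and with log2(intensity + 16) (log2 change 0.67, adjusted p = 0.0776). Of 17 Dsg2 probe sets, 16 were over the silent level in some population and 14 were highest in remaining basal cells. Against remaining basal cells, 6 were called lower in Gata6+Itga6- cells (1.01% of all probe sets) and 5 lower in CD34+ cells (0.731%). In Gata6+Itga6+ cells 1 was called higher than in CD34+ cells (0.871%), and in Gata6+Itga6- cells 1 was called lower than in Gata6+Itga6+ cells (0.668%).

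Dsc2, the most widely expressed desmocollin, was near the silent level and uneven among the Gata6+Itga6- samples. These had 1.77, 3.94 and 2.89 (2.87 ± 1.1), against 2.17, 1.73 and 2.58 in Gata6+Itga6+ samples (2.16 ± 0.42), 1.42, 1.89 and 1.95 in CD34+ samples (1.76 ± 0.29) and 1.78, 1.69 and 2.04 in remaining basal samples (1.84 ± 0.18). Gata6+Itga6- replicates 2 and 3 stood over all samples of the other populations, while replicate 1 lay among them. No difference was called. Without Gata6+Itga6- replicate 1, the increase over CD34+ cells (log2 change 1.66, adjusted p = 0.0178) and over remaining basal cells (1.57, adjusted p = 0.0318) was called. Without Gata6+Itga6- replicate 2, it shrank to 0.57 (adjusted p = 0.494) and 0.49 (adjusted p = 0.681) in the same comparisons. The result thus depended on which of these samples was left out. Of 19 probe sets 10 were over the silent level in some population and 14 were highest in Gata6+Itga6- cells, but the brightest was even, with means between 5.62 and 5.82 in the 4 populations.

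Dsg4, known from the hair cortex and from the lanceolate hair mouse, stayed under the silent level. Its means were 1.53, 1.56, 1.54 and 1.52 in Gata6+Itga6-, Gata6+Itga6+, CD34+ and remaining basal cells, and all 16 probe sets lay under the silent level in every population (highest mean 2.55). Dsg1c means were likewise 1.62, 1.43, 1.45 and 1.61. No ordering can be read for either gene. Of 9 measured inner root sheath and hair shaft markers, 1, 0, 1 and 0 were over the silent level in the same populations, with Krt25, Krt27, Krt71 and Krt31 under it in all 4.

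Counted over the family, few members were called in any comparison, which was read against the share of all genes called. Between Gata6+Itga6- and Gata6+Itga6+ cells 2 of 9 were called (3.18% of all genes, 1.17% higher and 2.01% lower), Dsc1 higher and Dsg2 lower. Between Gata6+Itga6- and CD34+ cells 3 were called (7.96% of all genes, 3.22% higher and 4.74% lower), Dsc1 and Dsg1a higher and Dsg3 lower. Between Gata6+Itga6- and remaining basal cells 2 were called (5.11% of all genes, 2.96% higher and 2.15% lower), Dsc1 higher and Dsg2 lower. The Itga6- population thus differed from each of the others in the same direction for Dsc1.

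Among the 3 integrin-positive populations the pattern was another. Between Gata6+Itga6+ and CD34+ cells 3 of 9 were called (4.59% of all genes, 2.4% higher and 2.18% lower), Dsc1, Dsg1a and Dsg2, all higher. Between Gata6+Itga6+ and remaining basal cells Dsc1 alone was called (1.36% of all genes). Between CD34+ and remaining basal cells 4 were called (5% of all genes, 3.32% higher and 1.67% lower), Dsg3 higher and Dsg1a, Dsg1b and Dsg2 lower. Comparisons that share a population share its samples, so these counts are not independent of each other. The median log2 change of the 9 members was 0.18, 0.16 and 0.01 in the 3 comparisons of Gata6+Itga6- cells, against -0.03, -0.02 and 0.00 for all genes, and 0.40, 0.04 and -0.16 in the 3 comparisons among integrin-positive cells, against 0.02, 0.04 and 0.02.

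**Figure D4:**
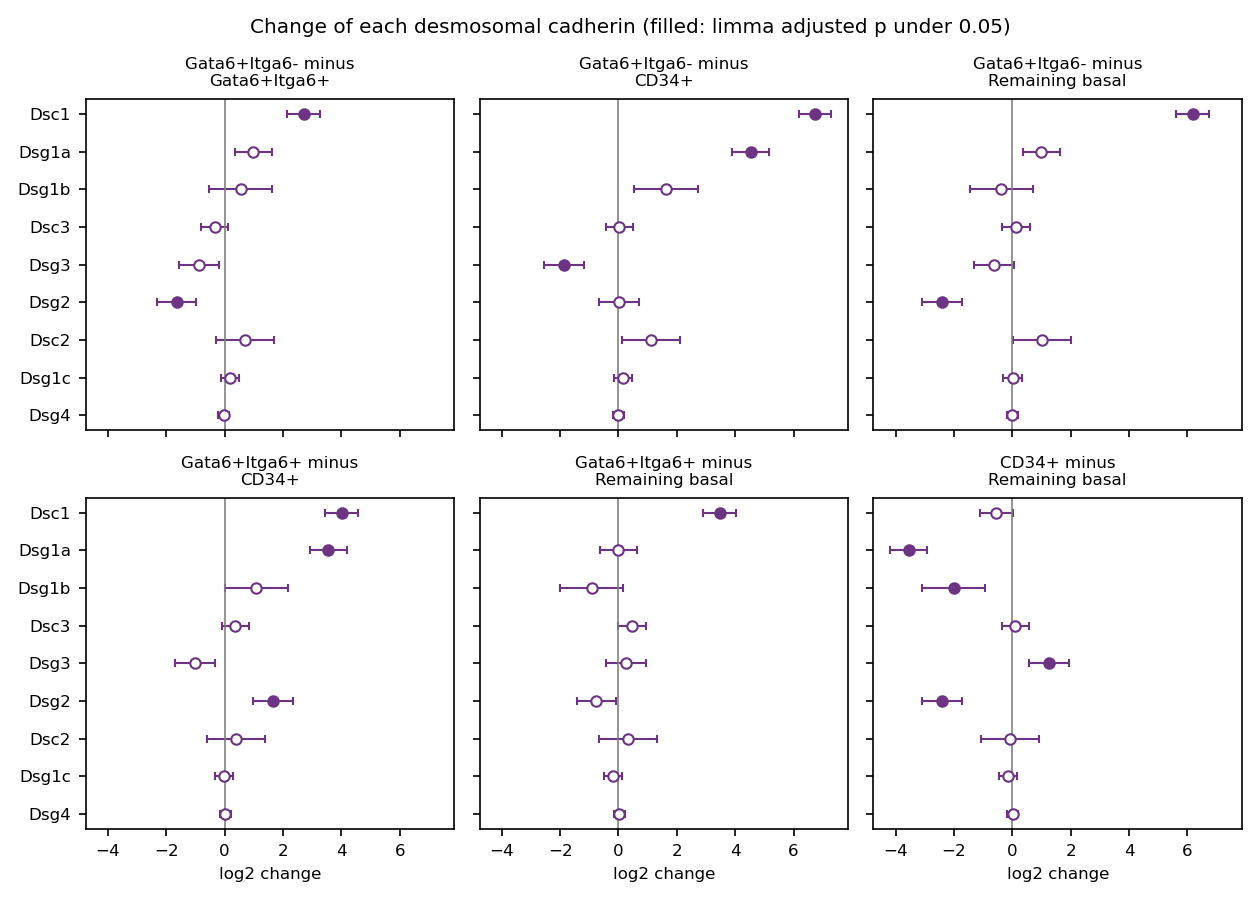
Log2 change of each desmosomal cadherin (points, with 95% intervals as bars) in the 6 comparisons of populations; filled points passed limma's adjusted p of 0.05 over all genes. Dsc1 is called in the 5 comparisons that involve a Gata6+ population, and Dsg1a in the 3 that involve CD34+ cells.

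The ratio of 2 bright members within a sample hardly changes with a scale shared by the whole array. This does not hold for a member near the silent level, such as Dsc1 in CD34+ and remaining basal cells. The log2 ratio of Dsc1 to Dsc3 was higher in Gata6+Itga6- cells by 3.05 (SE 0.35) than in Gata6+Itga6+ cells, by 6.71 (SE 0.30) than in CD34+ cells and by 6.06 (SE 0.52) than in remaining basal cells. The log2 ratio of Dsg1a to Dsg3 was higher by 1.86 (SE 0.29), 6.41 (SE 0.67) and 1.61 (SE 0.26) in the same comparisons, and in none of these 6 did the samples overlap. The change of the first ratio was mostly that of Dsc1, since the Dsc3 differences were -0.34, 0.03 and 0.13 and none was called, while against CD34+ cells both Dsg1a and Dsg3 were called, in opposite directions. Between Gata6+Itga6+ and remaining basal cells the pairs parted: the Dsc1 to Dsc3 ratio was 3.00 higher (SE 0.54, no overlap), while the Dsg1a to Dsg3 ratio changed by -0.25 (SE 0.33) and its samples overlapped. In CD34+ cells the Dsg1a to Dsg3 ratio was lower by -4.80 (SE 0.69) than in remaining basal cells. Where Dsc1 lay under the silent level, its ratio is limited by that floor and the true change may be larger. In sorted bulk samples, fewer cells with a transcript and less of it per cell cannot be told apart.

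Sums of differentiation markers differed between the populations, though not every marker followed its sum. The summed linear intensity of the 4 spinous markers was 1797 to 1947 in Gata6+Itga6- samples, 1263 to 1692 in Gata6+Itga6+ samples, 391.7 to 650.4 in CD34+ samples and 834.5 to 1152 in remaining basal samples, and all 4 were over the silent level in each population. Krt1, one of the 4, went against this sum: with the levels given above, it was called lower in Gata6+Itga6- cells than in Gata6+Itga6+ cells (log2 change -2.23, adjusted p = 0.00725) and than in remaining basal cells (-2.38, adjusted p = 0.00216). Sbsn averaged 9.61, 8.57, 8.29 and 6.65. The summed intensity of the 6 basal markers was 547 to 652, 1434 to 1524, 1350 to 1726 and 1631 to 1978 in the same order of populations. Of 7 measured granular and cornified markers, 5, 1, 1 and 2 were over the silent level in that order. Those of the 6 upper follicle and junctional zone markers summed to 2403 to 2536, 874 to 1248, 64.8 to 99.9 and 52.7 to 98.3, which is the order of Dsc1 in the Gata6+ populations. None of 3 endothelial markers was over the silent level anywhere; of 6 fibroblast markers 2 were, in CD34+ cells only. Of 5 melanocyte markers 1 was, Mlana in CD34+ cells (3.01), and of 3 measured T cell markers 1 was, Cd3e in Gata6+Itga6- cells, with 2.22, 2.17 and 3.80 in the 3 samples. Tnnt2, a troponin on the muscle list, was over it in all 4 populations at 4.81, 3.39, 6.03 and 3.38, while Myh6 and Acta1 of that list were under it in all. Of 5 Langerhans cell and macrophage markers 1, Epcam, was over it in every population, while Cd207, the defining Langerhans cell gene, was under it in all. Their summed intensity was 113 to 121 in Gata6+Itga6- samples and 31 to 78.2 in Gata6+Itga6+ samples. It was 21.2 to 27.0 in CD34+ samples and 18.2 to 22.4 in remaining basal samples. The part of these markers in the cadherin results was not tested.

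Over the 12 arrays, Dsg1a and Dsg3 levels ran against each other (Pearson's r = -0.87), Dsc1 ran with Dsg1a (0.72) and against Dsg3 (-0.70), and Dsg1b ran with Dsg1a (0.70). The genes most like a member were taken from 8035 others with a mean over the silent level in some population. Most like Dsc1 were Crabp2, a retinoic acid binding protein, at 0.982, Krt79, a keratin of the upper follicle, and Cst6, a protease inhibitor, both at 0.980, Nebl (0.977) and Alox12e (0.975), a lipoxygenase. Most like Dsg1a were Dapl1 (0.987), Cdkn1a (0.980), which encodes a cell cycle inhibitor, Krt10 (0.973), Bbox1 (0.965) and Krt77 (0.963), a suprabasal keratin. Thus the leading keratin differed: Krt79 for Dsc1 and Krt10 for Dsg1a.

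Most like Dsg3 were Gli3 (0.950), a Hedgehog pathway transcription factor, Anxa6 (0.942), Ephb4 (0.938), Gaa (0.931) and Vangl2 (0.930), a planar polarity protein. For Dsc3 they were Yy1 (0.944), St13 (0.939), Exo5 (0.935), Supt16 (0.933) and Fmr1 (0.923), and for Dsc2 Inpp5b (0.932), Traf4 (0.884), Teddm3 (0.878), Dusp5 (0.876) and Slc30a7 (0.874). No difference of Dsc3 or Dsc2 between populations was called. All these correlations describe arrays that fall into 4 populations, and no test was made.

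The partners that hold the cadherins inside the cell were counted by the same rule. Of 9 plaque and partner genes, 2 were called higher and none lower in Gata6+Itga6- cells than in Gata6+Itga6+ cells (1.17% and 2.01% of all genes). Against CD34+ cells 4 were called higher (3.22%), and against remaining basal cells 3 were (2.96%). Between Gata6+Itga6+ and CD34+ cells 2 were called higher (2.4%), and between Gata6+Itga6+ and remaining basal cells none. Between CD34+ and remaining basal cells 1 was called higher (3.32%) and 1 lower (1.67%). Several of these calls were close to the threshold. With each of the 12 arrays left out in turn, Dsp against Gata6+Itga6+ cells kept its call in 8 fits, Jup in Gata6+Itga6+ against CD34+ cells in 3 and Dsp in CD34+ against remaining basal cells in 7, and each of these 3 calls held in only 2 of the 10 other settings tried. Without Gata6+Itga6- replicate 2, Ppl (adjusted p = 0.0565) and Cdsn (0.0532) against CD34+ cells and Cdsn against Gata6+Itga6+ cells (0.0704) were not called, nor was Jup in Gata6+Itga6+ against CD34+ cells (0.0597). In the other settings Cdsn against Gata6+Itga6+ cells and against CD34+ cells kept its call in 8 of 10 each, and Ppl against CD34+ cells in 9. In the comparison with none called, 1.36% of all genes were called, the 9 genes had a median log2 change of 0.28 and Dsc1 differed as given above.

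Pkp1, a plakophilin that clusters desmosomal cadherins in the upper layers, shared the CD34+ minimum of Dsg1a. It had 7.16, 6.97 and 6.76 in Gata6+Itga6- samples, 6.58, 6.64 and 6.56 in Gata6+Itga6+ samples, 3.76, 3.88 and 4.53 in CD34+ samples and 6.49, 5.95 and 6.70 in remaining basal samples. All CD34+ samples lay below all others. Gata6+Itga6- cells had 7.51-fold more Pkp1 than CD34+ cells (log2 change 2.91, SE 0.23, adjusted p = 2.18e-05), and CD34+ cells had 5.01-fold less than remaining basal cells (-2.33, adjusted p = 0.000166). Jup, plakoglobin, was called higher in Gata6+Itga6- cells than in CD34+ cells (1.37, adjusted p = 0.00203) and than in remaining basal cells (1.11, adjusted p = 0.011; 0.0503 without Gata6+Itga6- replicate 2). Cdsn, corneodesmosin of the cornified layer, was called higher in Gata6+Itga6- cells than in remaining basal cells (at least 2.76-fold, adjusted p = 0.00812). Dsp, desmoplakin, was higher there by 0.67 (adjusted p = 0.00346).

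Genes known to act on desmosomal cadherins included transcription factors and the extracellular proteases that cut them. Of 10, 5 were called higher and 1 lower in Gata6+Itga6- cells than in Gata6+Itga6+ cells (1.17% and 2.01% of all genes). Against CD34+ cells 6 were called higher and 1 lower (3.22% and 4.74%), and against remaining basal cells 5 higher and 1 lower (2.96% and 2.15%). Among integrin-positive cells, 4 were higher in Gata6+Itga6+ cells than in CD34+ cells (2.4%). In Gata6+Itga6+ cells 2 were higher than in remaining basal cells (1.07%), and in CD34+ cells 3 were lower than in remaining basal cells (1.67%). With 1 array left out, Trp63 and Klk5 in Gata6+Itga6- against Gata6+Itga6+ cells kept their calls in 2 and 10 of 12 fits, Adam10 in Gata6+Itga6+ against CD34+ cells in 2, and Spink5 in Gata6+Itga6+ against remaining basal cells in 8. In the 10 other settings these 4 calls held in 5, 7, 8 and 8. Without Gata6+Itga6- replicate 2, Adam10 was not called in Gata6+Itga6- (adjusted p = 0.0576) or Gata6+Itga6+ (0.0558) against CD34+ cells. Grhl1, a grainyhead-like factor known to bind the Dsg1 promoter, had 6.51, 6.92 and 6.35 in Gata6+Itga6- samples, 4.18, 5.12 and 4.75 in Gata6+Itga6+ samples, 2.14, 2.11 and 2.53 in CD34+ samples and 4.27, 3.36 and 4.27 in remaining basal samples. Gata6+Itga6- cells had 3.77-fold more Grhl1 than Gata6+Itga6+ cells (adjusted p = 0.00789), and its lowest population was CD34+, as for Dsg1a. Grhl3, its relative, had the order of Dsc1 in the Gata6+ populations: Gata6+Itga6- cells had 2.79-fold more than Gata6+Itga6+ cells (1.48 on the log2 scale, SE 0.14, adjusted p = 0.000398), and these had 2.15-fold more than remaining basal cells (1.11, adjusted p = 0.0036).

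The kallikreins Klk5 and Klk7 and their inhibitor Spink5 were called higher in Gata6+Itga6- cells than in each other population, while the proteases Adam10 and Adam17 were not called against Gata6+Itga6+ or remaining basal cells. Klk7, a kallikrein that cuts corneodesmosomes, had 6.42, 7.22 and 6.80 in Gata6+Itga6- samples, 3.50, 3.18 and 2.74 in Gata6+Itga6+ samples, 3.08, 2.53 and 2.45 in CD34+ samples and 2.34, 2.46 and 2.28 in remaining basal samples. The Gata6+Itga6- samples stood far above the rest, at 12.8-fold over Gata6+Itga6+ cells (log2 change 3.68, adjusted p = 5.68e-05). Spink5, which inhibits these kallikreins, was raised in Gata6+Itga6- cells by 4.54-fold over Gata6+Itga6+ cells (2.18, adjusted p = 0.000834) and by 11.5-fold over remaining basal cells (3.52, adjusted p = 1.25e-05). Trp63, the factor p63 of stratified epithelia, was the 1 gene called lower in Gata6+Itga6- cells, by -1.50 against remaining basal cells (adjusted p = 0.0174; -1.28 and 0.0571 without remaining basal replicate 3). Adam10, a protease that sheds Dsg2, was lower in CD34+ than in remaining basal cells (-1.58, adjusted p = 0.0274), a call lost without remaining basal replicate 3 (0.0821) or 2 (0.107) and without any 1 of the CD34+ replicates (0.0526 to 0.0846).

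**Figure D5:**
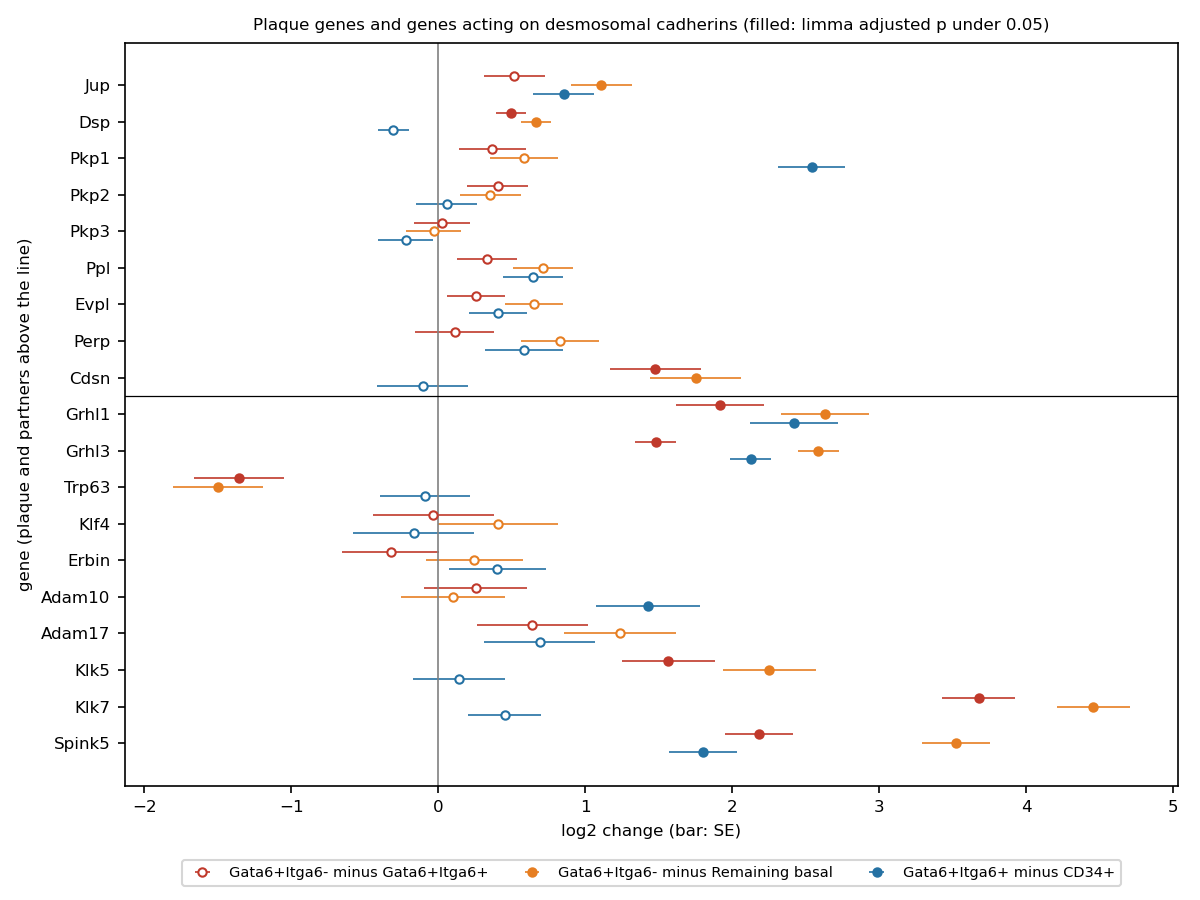
Log2 change (points, with SE as bars) of 9 plaque and partner genes, above the line, and 10 genes acting on desmosomal cadherins, below it, in 3 comparisons of populations; filled points passed limma's adjusted p of 0.05 over all genes. Klk7, Spink5, Grhl1 and Grhl3 are higher in Gata6+Itga6- cells than in Gata6+Itga6+ cells, and Pkp1 stands out in Gata6+Itga6+ against CD34+ cells.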

How the data were processed

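The deposited values were intensities of 235932 exon probe sets on 12 arrays, made by the authors with RMA in Affymetrix Power Tools on mm9, as the submitters' processing notes say; no versions were given in the sources used here. Their linear scale was read from the values (array medians 3.97 to 4.57, maxima 2172 to 2953), not stated, and every log2 value and fold rests on it. RMA is meant to even out shifts shared by an array, yet array upper quartiles still ran from 12.1 to 17.6. Over single-symbol probe sets, remaining basal replicate 3 had 16.2, against 12.2 and 12.6 for its group. Gata6+Itga6- replicate 2 had 15.65, against 13.29 and 13.35. The number of arrays limits precision.

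From these, log2(intensity + 1) was taken, and each gene was summarised by the median over its probe sets with 1 symbol (221205; 1684 with several symbols and 13043 with none were left out). Symbols were updated through RefSeq (GRCm38.p6): 15377 were current, 2489 updated and 42 kept. Limma 3.58.1 in R 4.3.3 fitted 1 mean per population to all 17853 genes and, separately, all single-symbol probe sets (prior degrees of freedom for genes 2.12, residual 8). A difference was called where the two-sided p, adjusted by Benjamini-Hochberg across all features, was under 0.05; SEs and 95% intervals come from this fit, SEs of ratios from the samples. Single-gene exact permutation tests of 3 against 3 cannot go below 0.1 and were not used. Folds against a mean under the silent level were taken against that level. The procedure was tested on simulated data. Named genes were all 9 members, every called gene of the partner lists, the 5 genes most like 5 of the members, sort genes and markers. Members, lists and tests were chosen with earlier results of these data known. Other settings were the added constant, gene summary, dim filter, quantile normalization, samples fitted, replicate block and leaving out arrays. Samples numbered alike did not deviate together as a rule: r was over 0.1 in 5 of 18 pairs (-0.14 to 0.28). It was highest for CD34+ and remaining basal replicate 3. Sequences and coordinates were not used here.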

Additional observations from a re-analysis of the deposited data

How the results depend on the processing

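The 15 called cadherin changes kept their direction in all 330 values from 10 other settings and 12 fits with 1 array left out, and 295 were still called. All calls of Dsc1 and Dsg1a, of Dsg2 against remaining basal cells and of Dsg3 in Gata6+Itga6- against CD34+ cells held throughout. The other calls lay near the threshold. The count for Gata6+Itga6- against Gata6+Itga6+ cells was 2, 1 with the brightest probe set, 3 with only these populations fitted, and 1 to 3 with an array left out; with log2(intensity + 16) Dsg2 was lost (adjusted p = 0.108) and Dsg1a gained (0.0422), which left 2. The count for CD34+ against remaining basal cells was 4, but 2 with log2(intensity + 16), 2 with only these populations fitted, 5 with the mean of probe sets, and 2 to 3 with an array left out. With the replicate number or the array letter in the labels as a block it was also 2. With the number as block, Dsg3 (adjusted p = 0.0704) and Dsg1b (0.0596) passed the threshold no longer. Between these 2 populations, deviations of samples numbered alike from their population means had r = 0.158, 0.0148 and 0.279. Beyond the block fits and these correlations, a pairing of the samples was not tested. For the other 4 comparisons the counts stayed within 1 of the main one. Dsg3 was called lower in Gata6+Itga6+ than CD34+ cells with the mean of probe sets (-1.25) and with quantile normalization (-1.05), and Dsg1b higher in Gata6+Itga6- than CD34+ cells with dim genes left out (adjusted p = 0.021), quantile normalization (0.0364) and only probe sets over the silent level, a setting chosen after seeing the data (0.0341). Uncalled changes of members were followed only from 0.3 on the log2 scale; of these, the ones that turned sign were Dsc2 with the brightest probe set (-0.0034 against Gata6+Itga6+ and -0.14 against remaining basal cells) and Dsg1b in Gata6+Itga6- against remaining basal cells without remaining basal replicate 3 (0.029; -0.98 to 0.029 with any 1 array left out). Adam10 in Gata6+Itga6+ against CD34+ cells was called, but came to -0.0574 with the brightest probe set. Over all genes, the mean of probe sets called 995, 2159, 1403, 1300, 454 and 1513, against 567, 1421, 913, 819, 242 and 892 with the median, in the 6 comparisons in the order of the report; fits of only the populations compared called 110 in place of 242 and 571 in place of 892, log2(intensity + 16) called 151 in place of 242, and the brightest probe set 503 in place of 819. With an array left out, 285 were the fewest in place of 567 and 131 in place of 242. The causes were not tested.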

Other observations

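The 3 Dsc1 probe sets that were near the silent level in Gata6+Itga6+ cells, chosen after their values were seen, held the largest log2 change of the gene's probe sets against these cells, 4.93, where the gene level gave 2.71. Dsc1 and Krt1 parted in Gata6+Itga6- cells: against Gata6+Itga6+ cells, Dsc1 was 6.56-fold higher and Krt1, a keratin of the spinous layer, was 4.69-fold lower (log2 change -2.23, adjusted p = 0.00725), while Krt10 was not called (9.61, against 9.50). These values were not weighed further. Few samples, sorted cells of mixed type and dim probe sets limit what can be read of Dsc2, Dsg1b, Dsg1c and Dsg4.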
